A study of Homo sapiens with 6 samples.

Results

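This account covers 32 genes of purine and pyrimidine nucleotide synthesis in PC-3 cells that overexpressed BHLHE22. The genes were chosen by name, from the known reaction of each enzyme, and with earlier results of these data known. All 32 were found among the 58302 genes of the deposited table. PC-3 is an established human prostate cancer cell line derived from a bone metastasis. The 3 BHLHE22 libraries came from PC-3 cells that received a lentivirus overexpressing BHLHE22, a basic helix-loop-helix transcription factor, and the 3 vector libraries from PC-3 cells that received a blank lentivirus. The labels do not say which promoter drove BHLHE22, whether the transduced cells were pools or clones, or when RNA was taken. Nor do they say whether replicates were separate cultures, so each p-value is set against a spread that may be only technical. By its title, the series concerns recruitment of myeloid-derived suppressor cells to prostate cancer bone metastases; nucleotide synthesis is not mentioned there.

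Cells build purine and pyrimidine nucleotides from phosphoribosyl pyrophosphate (PRPP), amino acids and folate-borne carbon, or recover them from free bases and nucleosides. The purine branch assembles the ring on the sugar and ends in inosine monophosphate (IMP), which is turned into AMP or GMP. The pyrimidine branch makes the ring first, attaches the sugar and yields UMP, then UTP and CTP. The deoxynucleotide branch starts with ribonucleotide reductase, which converts ribonucleotides to deoxyribonucleotides, and adds thymidylate synthesis and nucleoside salvage. Many of its genes are known to be transcribed most strongly around S phase, and several genes of all branches are known targets of MYC. The 32 genes were placed in a purine branch of 11 genes, a pyrimidine branch of 7, a deoxynucleotide branch of 10 and a set of 4 genes for steps that all branches share.

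Read counts summed to between 12186723 and 15808990 in the BHLHE22 libraries and between 13889050 and 15949537 in the vector libraries. Levels are given as CPM, read counts relative to a library size scaled by the trimmed mean of M-values. Mitochondrial genes took 4.95% to 5.21% of reads in BHLHE22 and 7.53% to 8.32% in vector libraries. All 32 genes passed the low-count filter, among 15945 genes tested. BHLHE22 had 98, 92 and 133 reads in the BHLHE22 libraries and 1 read in each vector library. The epithelial markers KRT8, KRT18, KRT19, EPCAM and CDH1 together reached 1117 to 1323 CPM in BHLHE22 and 1167 to 1302 CPM in vector libraries, mostly from KRT19. EPCAM was higher in BHLHE22 cells (log2 fold change 1.17, adjusted p = 0.000438), KRT8 and KRT18 were lower (-0.32 and -0.38, adjusted p = 0.0218 and 0.0397), and KRT19 and CDH1 did not pass. The 5 luminal prostate markers summed to 63.4 to 75.4 CPM in BHLHE22 and 143 to 186 CPM in vector libraries; KLK3 had no read. Of 9 blood cell markers 2 passed the filter, with summed levels of 45.5 to 52.7 CPM in BHLHE22 and 55.0 to 62.2 CPM in vector libraries, nearly all from CD68; TYROBP, CD3E and HBB had 0 reads. The stroma and endothelium list summed to 67.2 to 76.7 CPM in BHLHE22 and 119 to 139 CPM in vector libraries, mostly from COL1A1 and PECAM1, while CDH5 had 0 reads in the BHLHE22 libraries. The part of these markers in the results below was not tested.

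Most nucleotide synthesis genes were higher in BHLHE22 cells. Of the 32 genes, 22 rose, 1 fell and 9 did not pass an adjusted p of 0.05 in edgeR's quasi-likelihood test. Over all tested genes, 49.4% were called in either direction, 25.1% higher and 24.3% lower (3996 and 3880 genes). Without library scaling the calls split into 5128 higher and 2890 lower, and 26 of the 32 genes rose and 0 fell. The median log2 fold change of the 32 genes was 0.73, a 1.65-fold higher level, against 0.00 over all tested genes. A rise of at least 2-fold was found for 9 of the 32 genes and for 8.17% of all tested genes. The 3 BHLHE22 libraries lay above the 3 vector libraries for 24 of the 32 genes, and for 30.6% of all tested genes. Together the 32 genes took 0.400% to 0.452% of the reads of the BHLHE22 libraries and 0.223% to 0.278% of the reads of the vector libraries.

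The branches differed in median, although no test was run between them. The deoxynucleotide genes had the highest median log2 fold change, 1.06, with 7 of 10 higher and 0 lower. The purine genes had a median of 0.66, with 8 of 11 higher and 0 lower. The pyrimidine genes had a median of 0.55, with 5 of 7 higher and 1 lower. Of the 4 shared genes, 2 rose and 2 did not pass, with a median of 0.57. Summed levels of the deoxynucleotide genes were 1119.9, 1124 and 1155 CPM in BHLHE22 libraries, against 464, 443 and 541 CPM in vector libraries. The purine sums were 1398, 1615 and 1685 CPM in BHLHE22 libraries and 909, 931 and 1219 CPM in vector libraries. For pyrimidine genes they were 571, 622 and 675 CPM in BHLHE22 libraries and 506, 478 and 567 CPM in vector libraries, so the lowest BHLHE22 sum stood just above the highest vector sum.

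**Figure D1:**
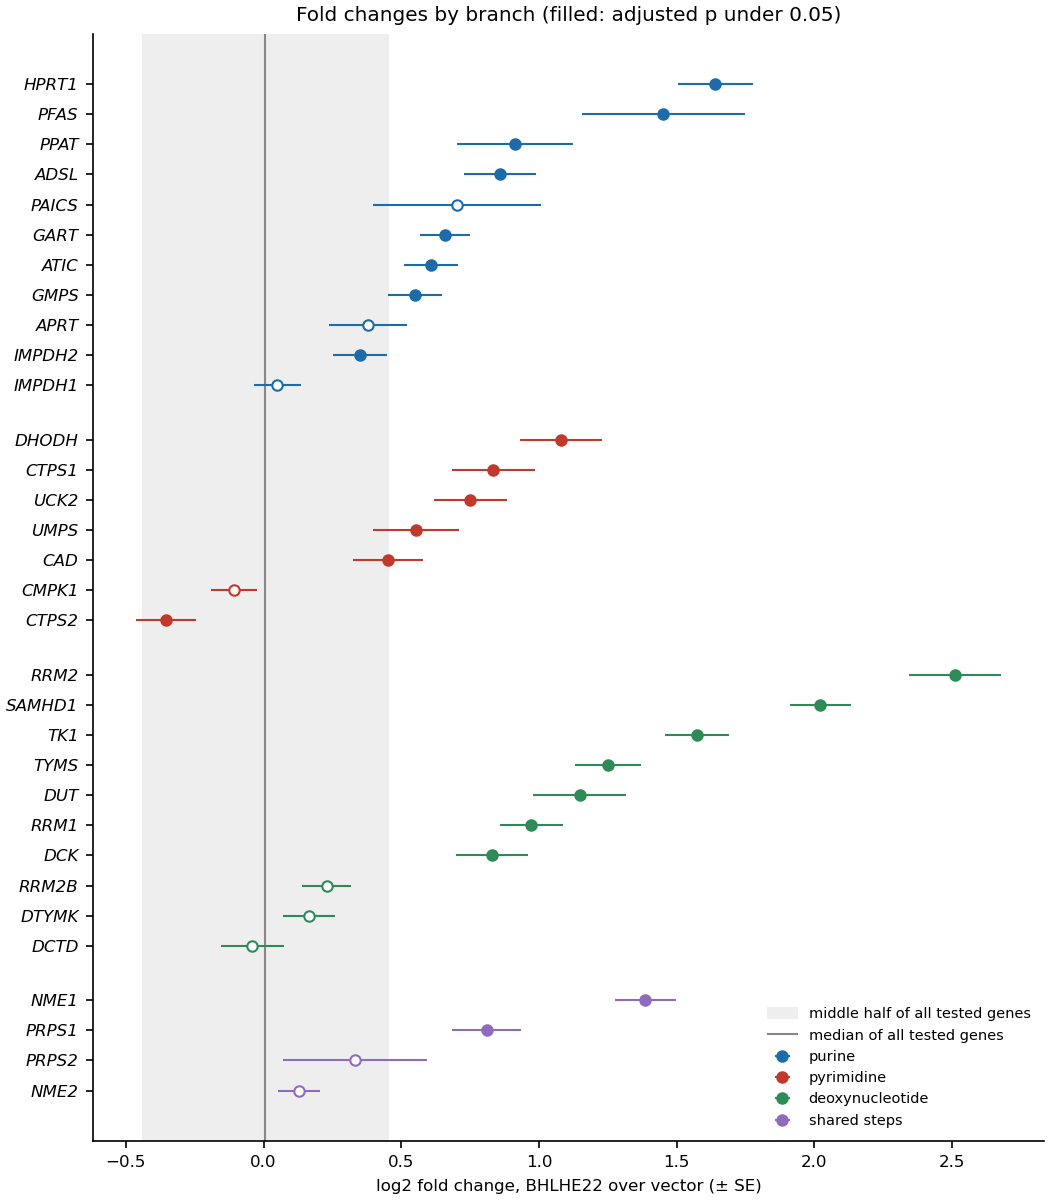
Log2 fold change of each gene, BHLHE22 over vector, with bars of 1 standard error, grouped by branch; filled points passed an adjusted p of 0.05. The shaded band runs from -0.44 to 0.45, the quartiles of all tested genes, and most deoxynucleotide points lie to its right, led by RRM2 at 2.51.

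The deoxynucleotide branch held the largest rise, that of RRM2, which encodes the radical-bearing small subunit of ribonucleotide reductase. RRM2 (ENSG00000171848, chromosome 2, 10120698 to 10131419 on GRCh38) had 239, 196 and 177 CPM in BHLHE22 libraries, against 33.5, 30.6 and 43.3 CPM in vector libraries. All BHLHE22 libraries lay far above all vector libraries, a 5.69-fold difference (log2 fold change 2.51, SE 0.17, adjusted p = 7.77e-05). This fold change exceeded that of 99.3% of all tested genes. RRM1, the catalytic large subunit, had 147, 157 and 158 CPM in BHLHE22 libraries and 75.5, 68.8 and 91.2 CPM in vector libraries, a smaller rise (log2 fold change 0.97, SE 0.11, adjusted p = 0.000534). RRM2B, the p53-inducible alternative small subunit used outside S phase, had 71.6, 74.5 and 77.2 CPM in BHLHE22 libraries and 60.6, 60.5 and 69.5 CPM in vector libraries. The groups did not overlap for RRM2B, but its log2 fold change of 0.23 (SE 0.09) did not pass (adjusted p = 0.0670), and without vector replicate 3 it did (0.0237). A same-strand protein-coding gene without an approved symbol, AC007240.1, shares 1077 exon bases with RRM2, and had 942 reads in BHLHE22 and 18 in vector libraries, beside 8739 and 1508 for RRM2.

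Of the genes around thymidylate, TYMS, TK1 and DUT rose, while DTYMK and DCTD did not pass. TYMS encodes thymidylate synthase, which methylates dUMP to dTMP. It had 177, 167 and 180.0 CPM in BHLHE22 libraries and 69.6, 64.1 and 86.4 CPM in vector libraries, with no overlap (log2 fold change 1.25, SE 0.12, adjusted p = 0.000263). TK1, the cytosolic thymidine kinase of nucleoside salvage, had 97.9, 101 and 119 CPM in BHLHE22 libraries and 32.3, 34.5 and 39.9 CPM in vector libraries, a 2.98-fold rise (adjusted p = 0.000117). DUT encodes the enzyme that splits dUTP to dUMP, which keeps uracil out of DNA and feeds TYMS. Its level was 34.3, 29.9 and 39.1 CPM in BHLHE22 libraries, against 15.7, 12.5 and 18.4 CPM in vector libraries, a 2.22-fold rise (adjusted p = 0.00131). Its 8 pseudogenes had 1 read in BHLHE22 and 41 in vector libraries, or 0.0664% and 6.28% of the DUT reads. DTYMK, the kinase that turns dTMP into dTDP, had 38.1, 42.5 and 41.5 CPM in BHLHE22 libraries and 35.2, 35.4 and 38.2 CPM in vector libraries. These ranges overlapped slightly, and DTYMK did not pass (log2 fold change 0.17, SE 0.09, adjusted p = 0.181). DCTD, which deaminates dCMP to dUMP, had 44.7, 52.5 and 41.3 CPM in BHLHE22 libraries and 49.4, 44.1 and 49.0 CPM in vector libraries, with overlapping groups (log2 fold change -0.04, SE 0.11, adjusted p = 0.787). The exons of TYMS share 967 bases with ENOSF1 on the opposite strand, which had 1663 reads in BHLHE22 and 1572 in vector libraries. Counting by strand is not stated, so reads in that overlap cannot be assigned to either gene.

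RNA of a gene of deoxycytidine salvage, DCK, and of a gene of deoxynucleotide breakdown, SAMHD1, was higher as well. DCK, the kinase that phosphorylates deoxycytidine and several nucleoside drugs, had 75.4, 73.8 and 66.0 CPM in BHLHE22 libraries and 35.6, 37.5 and 48.0 CPM in vector libraries, with no overlap (log2 fold change 0.83, SE 0.13, adjusted p = 0.00172). SAMHD1 acts against the other genes of the branch: it cleaves deoxynucleoside triphosphates, restricts retroviruses and is known as an interferon-inducible gene. It had 196, 229 and 257 CPM in BHLHE22 libraries, against 56.6, 54.8 and 56.7 CPM in vector libraries. This 4.06-fold rise was the second largest of the 32 genes (log2 fold change 2.02, SE 0.11, adjusted p = 3.35e-05), and the vector libraries differed from each other by far less than from any BHLHE22 library. Genes for enzymes that make and that destroy deoxynucleotides were thus both among the rises of this branch.

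Markers of cycling cells were higher in the same libraries. All 16 S phase genes of a list without nucleotide enzymes rose, with a median log2 fold change of 1.36, and 11 of 12 G2/M genes rose, with a median of 1.08. The S phase genes summed to 1217, 1283 and 1470 CPM in BHLHE22 libraries and 572, 554 and 662 CPM in vector libraries. The G2/M genes summed to 1827, 1686 and 1666 CPM in BHLHE22 libraries and 891, 653 and 1060.3 CPM in vector libraries. GINS2, a replication helicase subunit, and CCNE2, a G1/S cyclin, rose by 2.36 and 3.23 on the log2 scale, and the mitotic genes MKI67 and UBE2C by 1.49 and 1.02. The part of these genes in the deoxynucleotide result was not tested, and in bulk RNA more cells in a phase and more RNA per cell cannot be told apart.

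**Figure D2:**
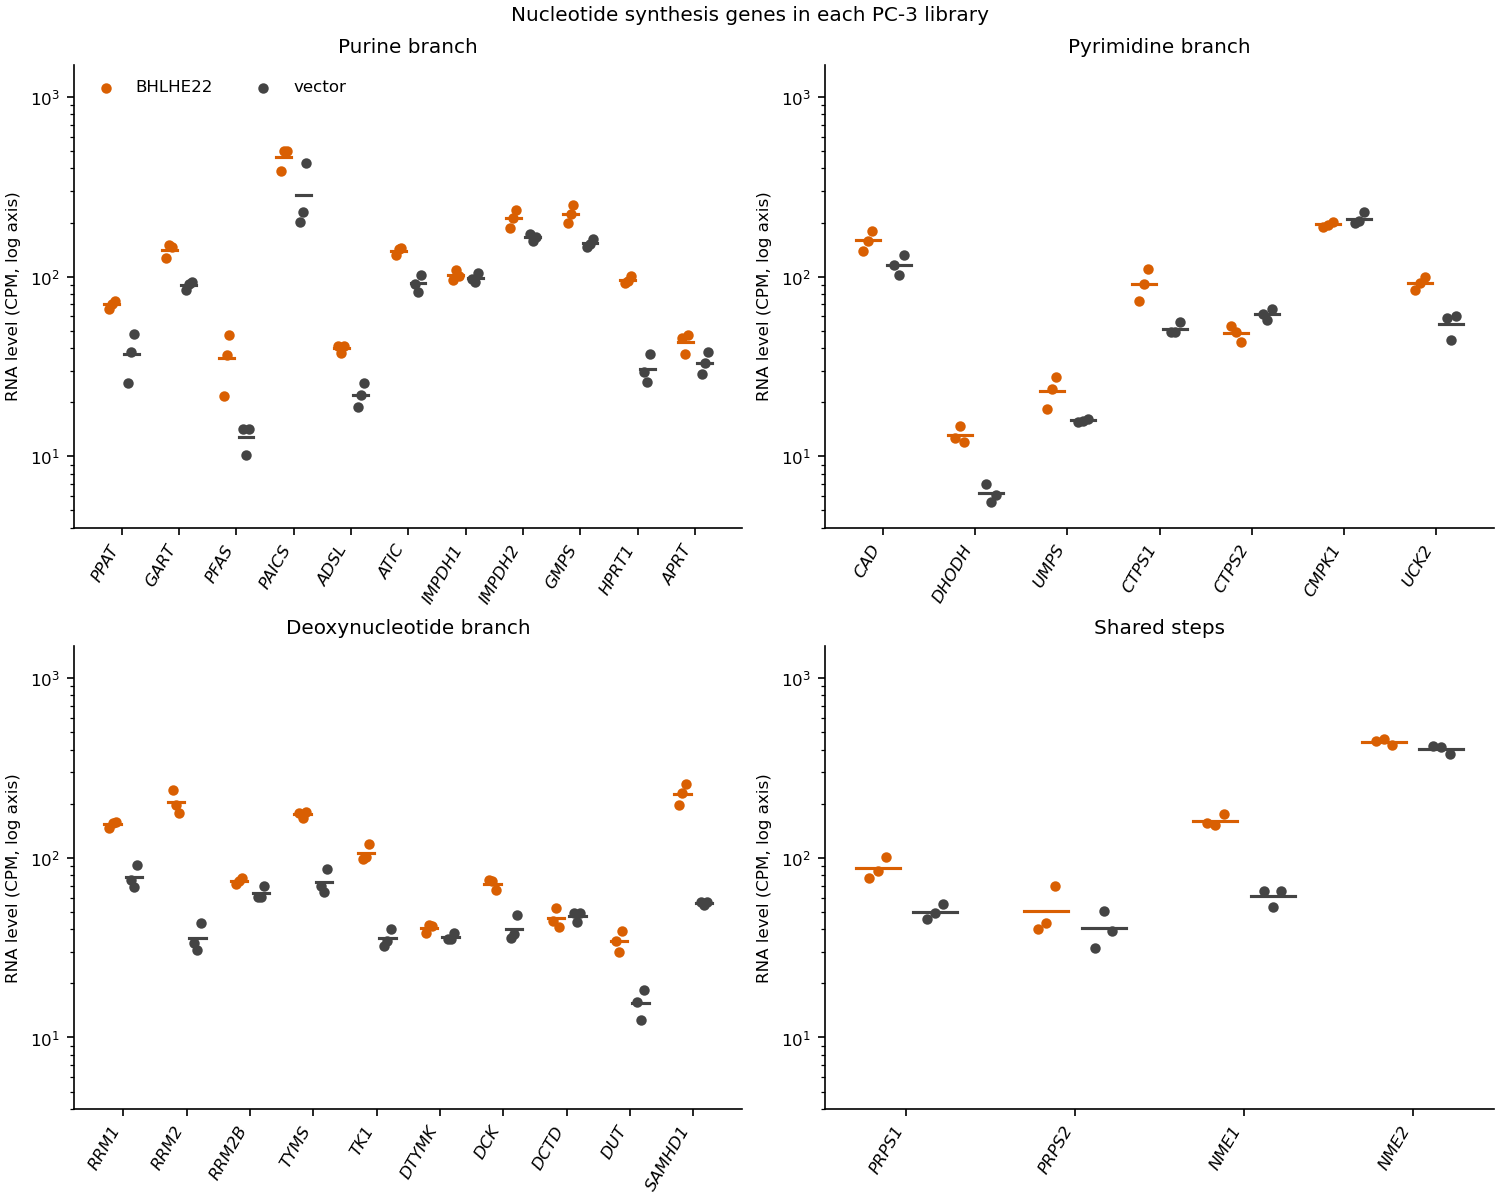
Level of each nucleotide synthesis gene in CPM on a log axis in the 3 BHLHE22 and the 3 vector libraries, by branch; points are libraries and bars are group means. RRM2 and SAMHD1 show the widest gaps between groups. The groups overlap for IMPDH1, CMPK1, DCTD, PRPS2, APRT, DTYMK and PAICS, and the third vector library of PAICS lies at 428 CPM.

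In the purine branch the 6 genes of the path to IMP all had positive log2 fold changes, of 0.61 to 1.45, and 5 of them rose. PPAT encodes the amidotransferase that commits PRPP to purines. It had 66.3, 70.8 and 73.3 CPM in BHLHE22 libraries, against 25.5, 38.1 and 48.2 CPM in vector libraries, with no overlap but a wide spread among the vector libraries (log2 fold change 0.91, SE 0.21, adjusted p = 0.0105). GART, which carries several activities of the path in a single protein, had 128, 151 and 145 CPM in BHLHE22 libraries and 84.5, 90.8 and 93.0 CPM in vector libraries (log2 fold change 0.66, SE 0.09, adjusted p = 0.00102). PFAS, the formylglycinamidine synthase, had 21.5, 36.7 and 47.3 CPM in BHLHE22 libraries and 14.2, 10.2 and 14.2 CPM in vector libraries. It had the steepest rise of the path, 2.73-fold, and the most uneven BHLHE22 libraries (SE 0.30, adjusted p = 0.00680). ADSL, the adenylosuccinate lyase that acts both before IMP and on the way to AMP, rose 1.81-fold, to 41.2, 37.5 and 41.3 CPM in BHLHE22 libraries, against 18.8, 22 and 25.4 CPM in vector libraries (adjusted p = 0.00154). A same-strand gene, AL022238.4, shares 18.9% of the exon bases of ADSL and had 65 reads in BHLHE22 and 194 in vector libraries. ATIC, which closes the ring to IMP, rose 1.52-fold, to 131, 143 and 144 CPM in BHLHE22 libraries, against 90.6, 82.4 and 102 CPM in vector libraries (adjusted p = 0.00198).

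PAICS, which joins carbon dioxide and aspartate to the growing ring, was the gene of the path that did not pass. It had 389, 499.7 and 503 CPM in BHLHE22 libraries, against 200.2, 227 and 428 CPM in vector libraries. The third vector library lay inside the BHLHE22 range, and the log2 fold change was 0.70 (SE 0.31, adjusted p = 0.105). Without vector replicate 3 it was 1.12 (adjusted p = 0.00152). The gene also passed in DESeq2 (adjusted p = 0.0225) and limma-voom (adjusted p = 0.0468). The 7 PAICS pseudogenes had 809 reads in BHLHE22 and 385 in vector libraries, which is 3.98% and 3.19% of the PAICS reads in those groups.

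PPAT and PAICS are neighbours on chromosome 4 that are transcribed away from each other. On GRCh38, PPAT runs from 56393362 to 56435615 on the minus strand and PAICS from 56435741 to 56464579 on the plus strand. The 125 bases between their starts (chr4:56435616-56435740, plus strand, from RefSeq's GRCh38.p14 promoter table) are shown because both genes start at their edges. They are 76% G or C, and the 15 CG dinucleotides are in capitals.
PPAT-PAICS gap: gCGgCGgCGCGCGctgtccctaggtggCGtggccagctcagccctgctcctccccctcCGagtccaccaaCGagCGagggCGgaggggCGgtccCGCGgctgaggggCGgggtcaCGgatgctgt
Both genes were lowest in vector replicate 1 and highest, among vector libraries, in vector replicate 3. This order was not particular to the pair: GART, ADSL and TK1, among others, had it too. Vector replicate 3 lay above the vector mean for 29 of the 32 genes. None of the motifs searched below was found in these 125 bases.

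Promoters of the 32 genes were searched for short motifs, since many of the genes moved together. The 250 bases before each RefSeq start were read on both strands, in 43 windows of 29 genes and in 35116 windows of all genes; ADSL, IMPDH2 and RRM2B were not in the table. CACGTG, the E-box bound by MYC and MAX, was found in 4 of the 43 windows (9.30%) and in 6.34% of all windows. E2F-like motifs (TTTCGCGC, TTTGGCGC, TTTCCCGC or TTTGCCGC) were found in 4 windows (9.30%) and in 2.79% of all windows. CATATG, another E-box, and the interferon response core, GAAA followed by any 2 bases and GAAA again, were found in 0 of the 43 windows, and in 2.63% and 3.02% of all windows. The windows with a match are few, and a match is a description of the sequence, not of binding. The stretches of 30 bases that hold the E-box CACGTG are shown in the gene's own direction, with the motif in capitals.
ATIC: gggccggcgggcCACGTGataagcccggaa
DCK: cgccccggccttCACGTGacctggcgtgcg
DHODH: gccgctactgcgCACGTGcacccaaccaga
PPAT: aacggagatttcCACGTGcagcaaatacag
The motif begins 46, 116, 159 and 182 bases before the start of ATIC, DCK, DHODH and PPAT, and all 4 genes rose. Of all 43 windows, 28 belong to genes that rose, and a link of motif and rise was not tested. The stretches lie at chr2:215312001-215312030, chr4:70993521-70993550 and chr16:72008573-72008602 on the plus strand and at chr4:56435780-56435809 on the minus strand, the last of these past the start of PAICS. The stretches with an E2F-like motif, in capitals on either strand, follow.
DUT: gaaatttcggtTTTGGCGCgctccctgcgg
GART: agcatTTTGGCGCtcccccccggcgctcct
PRPS2: tacatctagccgccgcgcTTTCCCGCtccc
TYMS: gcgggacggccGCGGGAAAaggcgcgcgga
They lie at chr15:48332159-48332188 for DUT, chrX:12791382-12791411 for PRPS2 and chr18:657603-657632 for TYMS on the plus strand, and at chr21:33542338-33542367 for GART on the minus strand. The motif begins 27, 245, 12 and 39 bases before the start used for DUT, GART, PRPS2 and TYMS, and DUT has a further match at 42 bases. DUT, GART and TYMS rose and PRPS2 did not pass. DUT and GART have several starts in the table, and the reads were not assigned to starts here.

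After IMP, 2 of the 3 genes of the GMP arm rose. IMPDH2, the inducible IMP dehydrogenase that sets the pace of GMP synthesis, had 188, 213 and 233 CPM in BHLHE22 libraries and 173, 157 and 167 CPM in vector libraries. The groups did not overlap, and the rise was 1.27-fold (SE of the log2 fold change 0.10, adjusted p = 0.0193). It did not pass without BHLHE22 replicate 2 (0.0579), BHLHE22 replicate 3 (0.0521) or vector replicate 2 (0.0548). IMPDH1, the constitutive isoenzyme, had 96.1, 109 and 100.1 CPM in BHLHE22 libraries and 97.1, 93.2 and 105 CPM in vector libraries, with overlapping groups (log2 fold change 0.05, SE 0.09, adjusted p = 0.658). GMPS, which aminates xanthosine monophosphate to GMP, rose 1.46-fold, with 199.6, 223 and 249 CPM in BHLHE22 libraries and 146, 151 and 162 CPM in vector libraries (adjusted p = 0.00302).

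Of the purine salvage pair, the gene for the hypoxanthine and guanine enzyme rose. HPRT1 had 92.6, 94.1 and 101 CPM in BHLHE22 libraries and 29.6, 25.8 and 37.0 CPM in vector libraries. This 3.12-fold difference was the largest of the purine branch (log2 fold change 1.64, SE 0.14, adjusted p = 0.000167), and its groups stood well apart. APRT, which recovers adenine, had 45.4, 37.0 and 47.1 CPM in BHLHE22 libraries and 28.6, 33.1 and 37.8 CPM in vector libraries. The second BHLHE22 library lay below the third vector library, and APRT did not pass (log2 fold change 0.38, SE 0.14, adjusted p = 0.0563). It passed without vector replicate 3 (0.0315), without BHLHE22 replicate 2 (0.0365) and without the low-count filter (0.0452).

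In the pyrimidine branch, the genes from the first step of the ring to UMP all rose. CAD, the protein with the opening activities of UMP synthesis, had 139.5, 158 and 179.9 CPM in BHLHE22 libraries and 115, 102 and 132 CPM in vector libraries (log2 fold change 0.45, SE 0.13, adjusted p = 0.0200). DHODH, the mitochondrial enzyme that oxidises dihydroorotate, was the least abundant of the 32 genes in CPM and had the largest rise of its branch. It had 12.6, 14.8 and 12.1 CPM in BHLHE22 libraries, against 7.03, 5.58 and 6.06 CPM in vector libraries, a 2.11-fold difference with no overlap (SE 0.15, adjusted p = 0.000991). UMPS, which makes UMP from orotate, had 18.4, 23.7 and 27.5 CPM in BHLHE22 libraries and 15.6, 15.7 and 16.2 CPM in vector libraries, with even vector libraries and uneven BHLHE22 libraries (log2 fold change 0.55, SE 0.16, adjusted p = 0.0206). CAD and UMPS both missed the threshold without BHLHE22 replicate 3 (adjusted p = 0.0597 and 0.0568), vector replicate 1 (0.0591 and 0.0609) or vector replicate 2 (0.0576 and 0.0529), and UMPS also without BHLHE22 replicate 2 (0.0583). UCK2, the uridine and cytidine kinase of salvage, rose 1.68-fold, to 84.0, 92.3 and 99.2 CPM in BHLHE22 libraries, against 58.5, 44.5 and 60.7 CPM in vector libraries (adjusted p = 0.00286). CMPK1, the kinase for CMP and UMP, had 189, 194 and 202 CPM in BHLHE22 libraries and 198, 203 and 230.0 CPM in vector libraries, with overlapping groups (log2 fold change -0.11, SE 0.08, adjusted p = 0.312).

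The pair of CTP synthases, which aminate UTP to CTP, moved in opposite directions. CTPS1, the isoenzyme known for its role in lymphocyte proliferation, had 73.2, 90.6 and 111 CPM in BHLHE22 libraries and 49.2, 49.0 and 55.9 CPM in vector libraries (log2 fold change 0.83, SE 0.15, adjusted p = 0.00316). CTPS2 was the gene of the 32 that fell, with 53.4, 49.1 and 43.1 CPM in BHLHE22 libraries and 62.2, 57.5 and 66.3 CPM in vector libraries. Its groups did not overlap (log2 fold change -0.35, SE 0.11, adjusted p = 0.0276). The fall of CTPS2 did not pass without BHLHE22 replicate 2 (0.0794), BHLHE22 replicate 3 (0.0811), vector replicate 1 (0.0782) or vector replicate 3 (0.0780), or with unscaled library sizes (log2 fold change -0.21, adjusted p = 0.165). Unscaled sizes shift the log2 fold change of the typical gene upward by 0.15, and the fold changes given here are relative to that gene.

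Among the shared steps, PRPS1 and NME1 rose and their paralogues did not pass. PRPS1, a PRPP synthetase, had 77.3, 84.7 and 101 CPM in BHLHE22 libraries and 45.8, 49.0 and 55.5 CPM in vector libraries (log2 fold change 0.81, SE 0.13, adjusted p = 0.00167). PRPS2, the second synthetase, had 40.1, 43.1 and 69.2 CPM in BHLHE22 libraries and 31.3, 50.7 and 39.3 CPM in vector libraries, with an interleaved order of libraries (log2 fold change 0.33, SE 0.26, adjusted p = 0.329). NME1, a nucleoside diphosphate kinase that turns diphosphates into triphosphates, had 155, 151 and 175 CPM in BHLHE22 libraries and 65.6, 53.1 and 65.6 CPM in vector libraries (log2 fold change 1.39, SE 0.11, adjusted p = 0.000147). NME2, its close paralogue, had 444, 455 and 424 CPM in BHLHE22 libraries and 419, 416 and 376 CPM in vector libraries (log2 fold change 0.13, SE 0.08, adjusted p = 0.199). NME1 and NME2 lie next to each other on chromosome 17 and are overlapped by the read-through gene NME1-NME2, which had 16838 reads in BHLHE22 and 14098 in vector libraries. That row held more reads than NME1 (7012 and 2579), and how reads were divided among the 3 genes is not stated, so the levels of NME1 and NME2 are uncertain.

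Isoenzymes and subunits of the same step were compared within each library, as a ratio of the authors' deposited FPKM, a level per gene length. The ratio of RRM2 to RRM1 was 1.32, 1.01 and 0.906 in BHLHE22 libraries and 0.359, 0.360 and 0.384 in vector libraries. In FPKM, RRM2 was thus close to RRM1 in BHLHE22 libraries and clearly below it in vector libraries, where the 3 ratios differed little. The ratio of RRM2 to RRM2B was 3.24, 2.55 and 2.23 in BHLHE22 libraries and 0.537, 0.492 and 0.605 in vector libraries. In FPKM, RRM2 thus lay above RRM2B in BHLHE22 libraries and below it in vector libraries. CTPS1 to CTPS2 was 1.43, 1.93 and 2.68 in BHLHE22 libraries and 0.828, 0.890 and 0.881 in vector libraries, likewise on opposite sides of 1 in FPKM. IMPDH2 to IMPDH1 was 2.44, 2.44 and 2.91 in BHLHE22 libraries and 2.23, 2.1 and 1.99 in vector libraries, a small difference without overlap. PRPS2 to PRPS1 was lower in BHLHE22 libraries, at 0.376, 0.369 and 0.495, than in vector libraries, at 0.496, 0.749 and 0.513, where the closest values nearly met. NME1 to NME2 was 0.204, 0.194 and 0.240 in BHLHE22 libraries and 0.0912, 0.0745 and 0.102 in vector libraries. For all 6 pairs the groups did not overlap, and each exact permutation test gave p = 0.1 (2-sided, n = 3 per group, also 0.1 after Benjamini-Hochberg adjustment over the 6 pairs), which is the smallest value the design allows and does not pass 0.05.

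**Figure D3:**
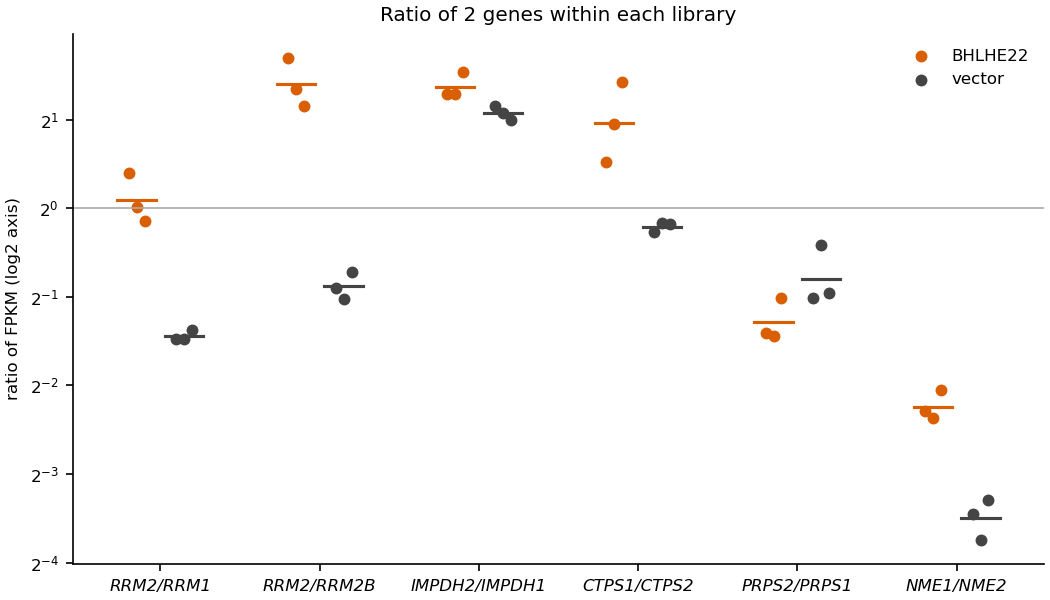
Ratio of the FPKM of the first to the second gene of each pair in every library, on a log2 axis. Points are libraries, bars are geometric means and the grey line marks equal FPKM. RRM2/RRM2B and CTPS1/CTPS2 lie above 1 in the 3 BHLHE22 libraries and below 1 in the 3 vector libraries.

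On the FPKM scale the levels of the 32 genes spanned a wide range. In BHLHE22 libraries NME2 was highest at 113 ± 3.5 FPKM (SD, n = 3), followed by HPRT1 at 57.6 ± 2.9, SAMHD1 at 45.8 ± 6.2, TYMS at 41.9 ± 1.8 and PAICS at 37.4 ± 5.2. The ranges of SAMHD1, TYMS and PAICS over these libraries overlapped, and a difference between them was not tested. Within each BHLHE22 library SAMHD1 lay above PAICS, at 39.5, 46.0 and 52.0 FPKM against 31.4, 40.1 and 40.7 FPKM. In vector libraries NME2 was again highest at 93.6 ± 4.1 FPKM, followed by CMPK1 at 34.2 ± 3.5, IMPDH2 at 21.7 ± 1.5 and PAICS at 20.9 ± 9.6. DHODH had the lowest level, at 1.37 ± 0.14 FPKM in BHLHE22 and 0.586 ± 0.077 FPKM in vector libraries.

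Libraries of a group differed in these genes, too. Vector replicate 3 lay above the vector mean for 29 of the 32 genes, with a median deviation of 0.14 on the log2 scale, whereas 50.6% of all tested genes lay above their mean in that library. Vector replicates 1 and 2 lay above it for 10 and 6 genes. Among BHLHE22 libraries, replicate 3 lay above the group mean for 25 genes, replicate 2 for 20 and replicate 1 for 8. Vector replicate 3 also had the highest sums of S phase and G2/M genes among vector libraries, 662 and 1060.3 CPM; the part of that in the spread was not tested. Without vector replicate 3, 25 of the 32 genes rose and 0 fell; without vector replicate 2 or BHLHE22 replicate 3, 19 rose.

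Other genes of nucleotide metabolism, taken from lists set by function, included falls as well as rises. Of 21 further purine genes tested, 8 rose and 4 fell, with a median log2 fold change of 0.10, where 25.1% of all tested genes rose and 24.3% fell. ADSS, the adenylosuccinate synthase that precedes ADSL on the way to AMP, rose to 81.2 ± 8.8 CPM in BHLHE22 cells, against 45.6 ± 0.28 CPM in vector cells (SD, n = 3; adjusted p = 0.000587). AMPD2, which deaminates AMP back to IMP, fell to 43.1 ± 2.7 CPM in BHLHE22 cells, against 109 ± 19 CPM in vector cells (log2 fold change -1.34, adjusted p = 0.000303). The purine nucleoside phosphorylase PNP rose by 0.65 on the log2 scale. The other falls, named after their values were seen, were NT5C2, a nucleotidase for IMP and GMP, ADSSL1, the muscle form of ADSS, and AK5, at -0.63, -0.81 and -0.57. Of 9 further pyrimidine genes tested, 6 rose and 0 fell, with a median of 0.65. CMPK2, a mitochondrial nucleotide kinase known as an interferon-inducible gene, had 25.5, 25.6 and 38.2 CPM in BHLHE22 libraries and 2.50, 2.99 and 3.10 CPM in vector libraries (log2 fold change 3.38, SE 0.21, adjusted p = 5.85e-05). UPRT, DPYD and UPP1 rose by 1.26, 0.95 and 0.65; DPYD and UPP1 break down pyrimidine bases and uridine.

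Of 9 further deoxynucleotide genes, 3 rose and 1 fell, where 25.1% of all tested genes rose and 24.3% fell. TYMP, which breaks down thymidine, rose by 1.53 on the log2 scale (adjusted p = 9.59e-05). DCTPP1, a dCTP pyrophosphatase, rose by 1.48 on the log2 scale. Of 8 further shared genes, SLC29A1, the equilibrative nucleoside transporter, rose by 0.90 and NME7 by 0.64, and 6 did not pass, a share near the 25.1% of all tested genes that rose. In the folate supply list 5 of 8 genes rose and 1 fell. The folate carrier SLC19A1, the cytosolic enzyme MTHFD1 and the cytosolic SHMT1 rose by 1.16, 1.09 and 0.65. The mitochondrial genes of the list had mixed values. SHMT2 fell by 0.38 (adjusted p = 0.0141; 0.0580 with unscaled library sizes), MTHFD2L rose by 0.88 (adjusted p = 0.0332; named after its value was seen), and MTHFD1L and MTHFD2, also named after their values were seen, had log2 fold changes of 0.10 and -0.17 and did not pass. MYC, whose known targets include members of all branches, had 103 ± 4.5 CPM in BHLHE22 libraries and 11.5 ± 1.4 CPM in vector libraries (SD, n = 3). The part of MYC in these results was not tested.

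**Figure D4:**
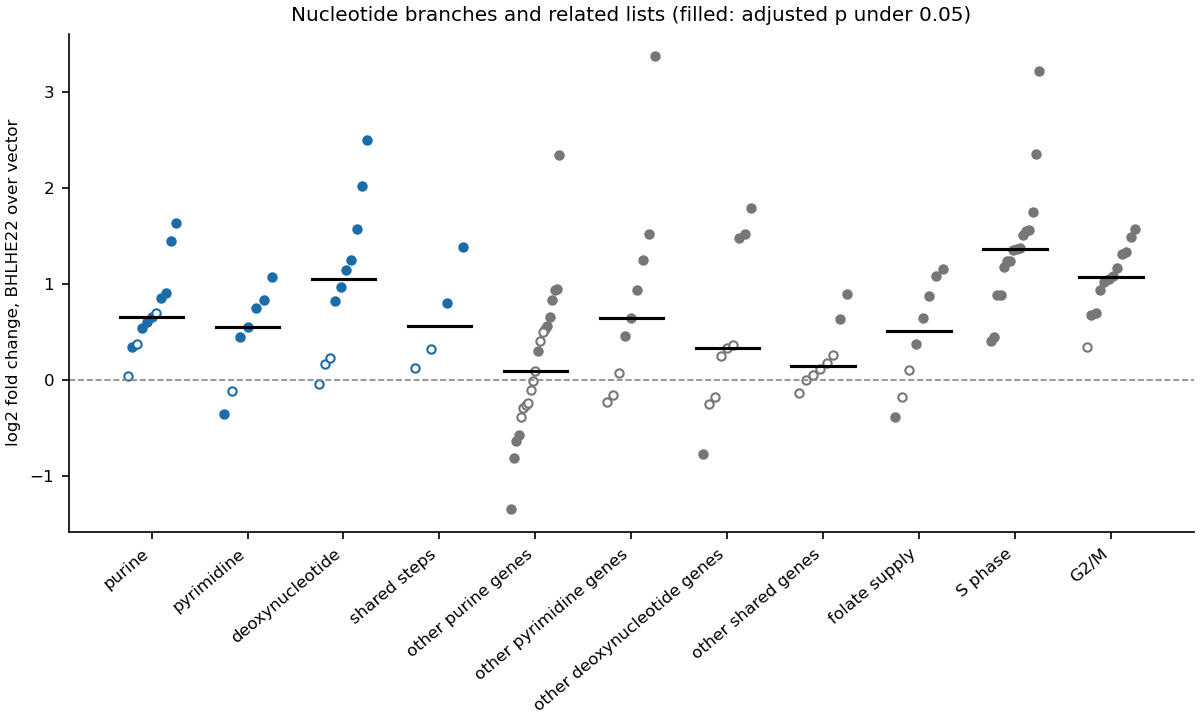
Log2 fold change, BHLHE22 over vector, of the tested genes of each branch (blue) and of related lists (grey); filled points passed an adjusted p of 0.05, black bars are list medians and the dashed line is the median of all tested genes. The deoxynucleotide median of 1.06 lies close to the G2/M median of 1.08 and below the S phase median of 1.36, while the other purine genes spread to both sides of 0.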

How the data were processed

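The authors deposited 1 table with whole-number read counts and FPKM values per Ensembl gene for 6 PC-3 libraries, per the file headers. Per the submitters' processing notes, CASAVA 1.8, HISAT2 2.1.0, StringTie 1.3.4b and edgeR were used with GRCh38; which step each served, and whether counting used strand, is not given in the sources used here. Per the labels' protocols, TRIzol was used for the RNA and an NEB kit for the libraries. Columns headed control were taken as vector libraries. Deposited FPKM was used only for levels and ratios between genes.

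Genes kept by filterByExpr were tested with edgeR 4.0.16 (R 4.3.3, quasi-likelihood, robust, TMM, group as the only term, 2-sided), with Benjamini-Hochberg adjustment over 15945 genes and a threshold of 0.05. The SE is the log2 fold change divided by the square root of F. Values per library have n = 3 per group. The common biological coefficient of variation was 17.0%. The 32 genes and all lists were chosen with earlier results of these data known, so no list was tested as a whole. Named beyond the 32 genes are up to 4 called genes with the smallest p per nucleotide list and up to 2 per cell cycle list. A few genes that this rule names are not reported here. Positions of 31 of the 32 genes were identical in GENCODE release 29. On 3 simulated draws of the 15945 genes, 22.3% of 1.5-fold and 94.7% of 3-fold changes were called, and 10.2% of calls were false. That false share is above the one a threshold of 0.05 aims at. Alternatives were the replicate number as a block, other scalings, DESeq2 1.42.0, limma-voom (limma 3.58.1), other filters, a threshold of 0.01 and leaving out each library.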

Additional observations from a re-analysis of the deposited data

How the results depend on the processing

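The count of nucleotide synthesis genes that rose, 22, was 18 to 26 over all settings, and the count over all tested genes, 7876, was 6303 to 7698 when a library was left out. At a threshold of 0.01, 4962 genes were called (2480 higher, 2482 lower), 3 pyrimidine genes rose and 0 of the 32 genes fell; of the related lists, 2 purine genes fell, and 3 folate genes rose and 0 fell. With unscaled library sizes 0 of the 32 genes fell, CMPK1 and DCTD changed sign to 0.036 and 0.10, 5 further deoxynucleotide and 4 further shared genes rose, and 0 folate genes fell. Leaving out each library gave 0 to 1 falls among the 32 genes, all in the pyrimidine branch, 3 to 5 rises among pyrimidine genes and 3 to 5 among folate genes. The log2 fold change of DCTD was then -0.13 to 0.040. The difference of the log2 FPKM ratio was 0.94 to 1.39 for CTPS1/CTPS2 and -0.63 to -0.30 for PRPS2/PRPS1 when a library was left out. The alternatives for the related lists and their genes were added after the data were seen. The cause of these changes was not tested. Replicate numbers did not pair the libraries: correlations of same-numbered deviations were 0.01, -0.03 and 0.01, and with the replicate block 23 of the 32 genes rose and 1 fell; the added rise was that of PAICS (log2 fold change 0.78, adjusted p = 0.0267). At these depths and this spread, 22.3% of simulated 1.5-fold changes were called. The simulated draws held far fewer changed genes than were called in the data, so neither this share nor the 10.2% of false calls need hold here.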
